A study of Mus musculus with 24 samples.

Results

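The set described here holds 9 genes of the Sonic hedgehog pathway, chosen by name from the 23306 entries of the deposited expression table: the receptor Ptch1, the signal transducer Smo, the co-receptors Gas1, Boc and Cdon, the transcription factors Gli1, Gli2 and Gli3, and the inhibitor Sufu. All 9 were found in the table, and all 9 passed the filter on low values in each fit. They were followed over 24 libraries from the dentate gyrus, a hippocampal region where neurogenesis goes on in adult mice. Every group came from female C57BL6 mice of the line Nes-CreERT2::RiboTag, which carry a tamoxifen-inducible Cre under Nestin control and the RPL22HA/WT allele, and which received tamoxifen daily for 5 days at an age of 9 to 11 weeks. Recombination adds an HA tag to the ribosomal protein Rpl22, so that ribosome-bound RNA of recombined cells and their descendants can be precipitated. In 12 libraries this precipitate was sequenced (IP), labelled as immature neurons, and in 12 the dentate gyrus RNA before precipitation (input). Running mice had a free wheel and sedentary mice a glued one, for 11, 18 or 27 days. Each combination of fraction, activity and day has 2 libraries, lettered a and b (day 11), c and d (day 18) or e and f (day 27). Whether the libraries in a group stem from different mice or from pools is not in the labels, so p-values measure the spread between these libraries, which may be technical.

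Hedgehog signalling runs through the primary cilium. Without ligand, Ptch1 keeps Smo inactive, and Gli2 and Gli3 are held by Sufu and processed toward repressors. When Sonic hedgehog binds Ptch1 with the help of Gas1, Boc or Cdon, Smo is released, Gli proteins are activated and target genes are transcribed, Gli1 and Ptch1 among them. In the adult dentate gyrus the pathway is known for the upkeep of neural stem cells, and Gli1 marks stem cells that respond to the ligand.

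Expression is in TPM, a length-scaled unit of relative transcript abundance, which keeps no read depth; the depth of the libraries is therefore unknown. The label of the IP was checked against marker genes. All 10 immature neuron markers were higher in the IP than in the input, among them Dcx at a mean of 119 against 14.7 TPM, and none was at 0 in any library. All 10 neural stem cell markers were higher too, with Nes at 52.8 against 19.4 TPM, as were all 8 markers of dividing cells. Of 10 astrocyte markers 4 were higher and 4 lower in the IP. Slc1a3 averaged 988 TPM in the IP against 357 TPM in the input, and Gfap 410 against 280 TPM. Aqp4 averaged 66.8 against 140 TPM, Gja1 107 against 171 TPM, Gjb6 14.6 against 24.5 TPM and S100b 15.0 against 53.0 TPM. The 8 microglia markers were all lower in the IP. Transcripts of stem cell and astrocyte markers were thus present in the IP beside those of immature neurons. The IP library of running mice with letter a at day 11 had 17.4% of its TPM in Rpph1, the RNA of ribonuclease P, and the other IP libraries at most 9.16%. In the input of day 18 the mean of 1102 olfactory receptor genes, which serve odour detection in the nose, was 4.67 to 9.78 TPM, against 0.518 to 2.58 TPM at day 11 and 1.74 to 3.66 TPM at day 27. In bulk RNA, fewer cells of a type and less RNA per cell cannot be told apart.

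The genes lie on 7 chromosomes (GRCm38, the mm10 build). Ptch1 spans chr13:63508328-63573598 on the minus strand, Smo chr6:29735503-29761365 on the plus strand, and Sufu chr19:46396896-46488804 on the plus strand. The co-receptor Gas1 lies at chr13:60174405-60177365 (minus), Boc at chr16:44485049-44558897 (minus) and Cdon at chr9:35421128-35507652 (plus). Gli1 lies at chr10:127329882-127341974 (minus), Gli2 at chr1:118834132-119053619 (minus) and Gli3 at chr13:15463235-15730026 (plus). Exons of Gli1 overlap those of Arhgap9 on the opposite strand, which averaged 0.966 TPM in the IP against 0.728 TPM in the input. Exons of Gli3 and Gas1 overlap those of the antisense genes Gm6556 and Gm48488, which were not analysed here. Since the strand setting of the counting is not given in the sources used here, reads of such pairs may not have been told apart.

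RefSeq promoter windows of 300 bases (GRCm38.p6, 250 before to 50 after the start) were found for 7 of the 9 genes. Gli1 and Boc had no entry. The windows were searched on both strands for GACCACCCA, the core of the Gli binding motif, and for GACCNCCCA, which contains it. Neither was found in any of the 7 windows, while 0.253% and 0.977% of 32851 windows held them. The 250 bases before the RefSeq start are shown for Ptch1, itself a known Gli target, and for Gas1. Ptch1 and Gas1 were chosen because they had the largest differences between running and sedentary mice. Both stretches are in lower case throughout, since no base was marked by a match. The Ptch1 stretch is chr13:63565736-63565985 and the Gas1 stretch chr13:60177536-60177785, both on the minus strand, and the Gas1 stretch lies in an exon of Gm48488 on the opposite strand.
Ptch1: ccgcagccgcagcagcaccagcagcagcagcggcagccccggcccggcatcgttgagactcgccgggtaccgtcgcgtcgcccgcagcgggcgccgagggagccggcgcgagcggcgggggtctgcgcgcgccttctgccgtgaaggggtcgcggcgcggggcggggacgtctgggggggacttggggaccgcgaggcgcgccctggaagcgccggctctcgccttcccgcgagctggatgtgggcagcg
Gas1: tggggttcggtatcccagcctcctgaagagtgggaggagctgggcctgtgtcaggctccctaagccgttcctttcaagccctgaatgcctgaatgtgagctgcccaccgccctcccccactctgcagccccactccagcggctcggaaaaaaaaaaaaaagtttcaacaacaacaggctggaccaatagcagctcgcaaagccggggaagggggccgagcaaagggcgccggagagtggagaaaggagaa
The window of Ptch1 was 76.3% G and C and that of Gas1 62.3%. The windows of Ptch1, Gli3 and Cdon lie within the gene spans given above, so the bases before those spans were not searched. No match says only that these letters are not in these windows.

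All 9 genes were higher in the IP than in the input. Differences are of log2(TPM + 1), where changes of low genes appear smaller than they are, and a gene was called when its adjusted p was under 0.05 (limma, two-sided, Benjamini-Hochberg over all genes tested). Of 19507 genes 69.9% were called, 41.4% higher in the IP and 28.5% lower. The median difference of the 9 genes was 1.13, against 0.12 for all genes. In 7 of the 9 every IP library was above every input library, which held for 10.1% of all genes. The ratio of mean TPM in the IP to that in the input ran from 1.38 for Smo to 4.33 for Gli1.

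The receptor Ptch1 was the most abundant of the 9 in both fractions. It ranged from 29.4 to 66.2 TPM in the IP, with a median of 49.7, and from 16.3 to 27.9 TPM in the input, with a median of 22.9. The lowest IP library, running a of day 11, was thus still above the highest input library. The difference was 1.08 ± 0.086 (SE; adjusted p = 1.37e-09). Smo, the transducer that Ptch1 inhibits, had 13.7 to 27.9 TPM in the IP (median 21.8) and 10.7 to 18.8 TPM in the input (median 15.3). The fractions overlapped for Smo, and 11 of 12 IP libraries were above the input library of the same activity and letter. Its difference was 0.43 ± 0.087 (adjusted p = 0.00023), the smallest of the set. After scaling by median-of-ratios size factors it was 0.16 and no longer called (adjusted p = 0.0576).

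Among the co-receptors, which bind the ligand at the surface beside Ptch1, Gas1 and Cdon differed most. Gas1 had 9.15 to 20.9 TPM in the IP (median 14.1) and 2.71 to 4.83 TPM in the input (median 3.97), a difference of 1.70 ± 0.10 (adjusted p = 1.93e-11). Cdon had 31.1 to 58.6 TPM in the IP (median 47.3) and 10.8 to 18.6 TPM in the input (median 15.9), a difference of 1.5 ± 0.084 (adjusted p = 9.86e-12). For both, the IP and input libraries were wholly separate. Boc had 8.79 to 13.7 TPM in the IP (median 11.1) and 4.22 to 10.7 TPM in the input (median 7.58). Its fractions overlapped, with 11 of 12 IP libraries above the input library of the same name. The difference was 0.55 ± 0.11 (adjusted p = 0.000285). The input libraries that reached into the IP range were running a of day 11, at 10.0 TPM, and running d of day 18, at 10.7 TPM. These also had the highest summed ependymal and choroid plexus markers of the input, at 222 and 569 TPM. The part of this in the Boc values was not tested. Under median-of-ratios scaling Boc was at 0.29 (adjusted p = 0.0202).

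All of the transcription factors were separated between fractions. Gli1, a target and activator, had the lowest levels of the set, with 3.84 to 10.1 TPM in the IP (median 7.70) and 0.64 to 3.54 TPM in the input (median 1.38). Its ratio of mean TPM was 4.33, the highest of the 9, and its difference 1.68 ± 0.12 (adjusted p = 4.23e-10). Gli2, the main activator, had 5.56 to 10.1 TPM against 1.99 to 4.97 TPM, a difference of 1.11 ± 0.10 (adjusted p = 1.23e-08). Gli3, which acts largely as a repressor, had 11.6 to 22.1 TPM against 4.50 to 9.43 TPM, a difference of 1.21 ± 0.088 (adjusted p = 3.81e-10). The inhibitor Sufu had 23.5 to 45.4 TPM in the IP (median 34.3) and 9.87 to 18.6 TPM in the input (median 15.6), a difference of 1.13 ± 0.070 (adjusted p = 4.31e-11). Repressing and activating members were thus both higher in the IP.

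**Figure D1:**
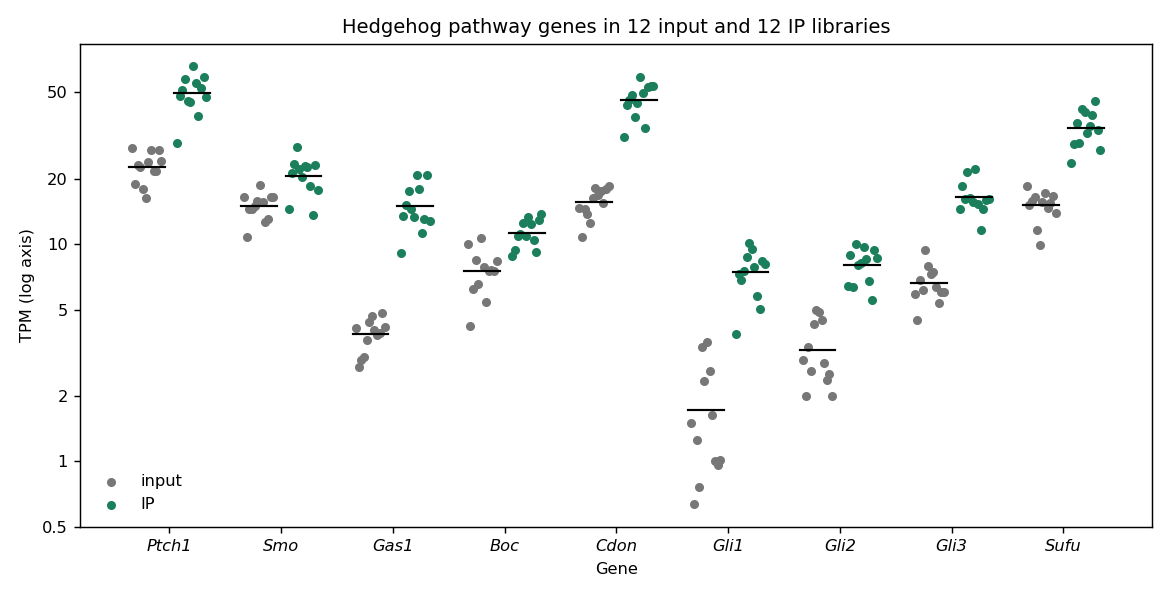
TPM of the 9 genes (log axis) in each of the 12 input libraries (grey) and 12 IP libraries (green), with a line at the mean. The IP libraries are separate from the input libraries for 7 genes and overlap them for Smo and Boc.

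Within each day the same contrast gave 8 of 9 calls at day 11, 9 of 9 at day 18 and 8 of 9 at day 27. The share of all genes called higher was 29.2% at day 11, 33.0% at day 18 and 34.6% at day 27. The exception at day 11 was Boc, at 0.48 (adjusted p = 0.0607), and at day 27 it was Smo, at 0.29 (adjusted p = 0.12). With single libraries left out, Boc at day 11 ranged from 0.21 to 0.75. Under median-of-ratios scaling the calls were 7, 8 and 7 of 9. Of all genes, 3687, 4596 and 3833 were then called higher, in place of 5692, 6428 and 6757. Smo then lost its call at day 11 (adjusted p = 0.0538) and day 18 (adjusted p = 0.206) and stood at -0.02 at day 27, so that its direction turned there, and Boc lost its call at day 27 (adjusted p = 0.371). Without the day 18 libraries all 9 genes were still called over the other 2 days, with Smo at 0.43 (adjusted p = 0.00533). In that fit 7844 of all genes were called higher and 3064 lower. Over all days, median-of-ratios scaling moved the calls from 8077 higher and 5554 lower to 5429 higher and 8124 lower. It also moved the median difference of all genes from 0.12 to -0.12. Relative to that median the 9 genes stood at 1.01 in the deposited TPM and at 1.00 after scaling.

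**Figure D2:**
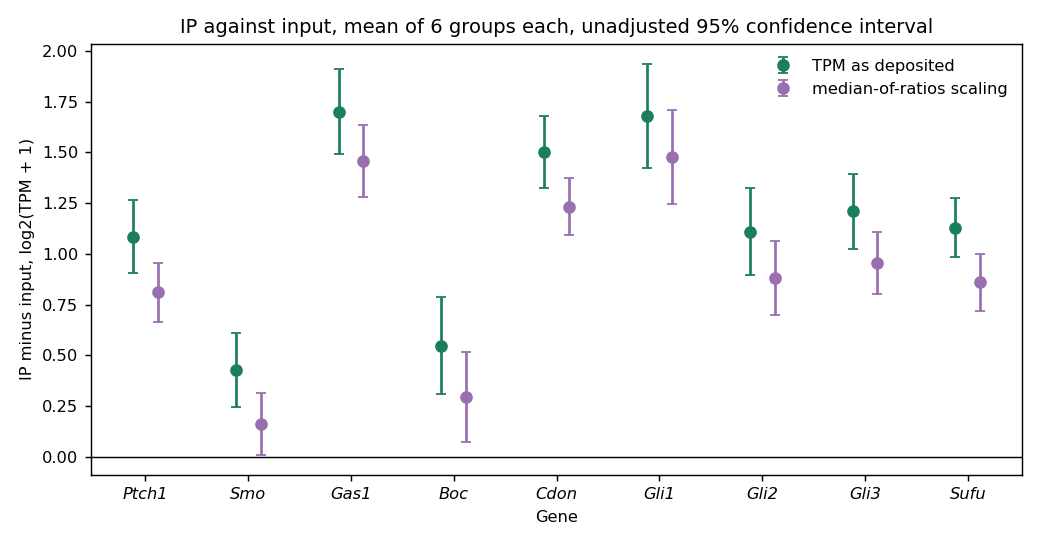
Difference between IP and input on the log2(TPM + 1) scale for each gene, as the mean over 6 groups in each fraction, with the unadjusted 95% confidence interval, from TPM as deposited (green) and after median-of-ratios scaling (purple). Scaling lowers every gene, and takes Smo from 0.43 to 0.16 and Boc from 0.55 to 0.29.

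The order of the mean levels, on the TPM scale, was Ptch1 (49.7 ± 9.65 TPM, SD, n = 12), Cdon (46.2 ± 8.33), Sufu (34.4 ± 6.56), Smo (20.7 ± 4.01), Gli3 (16.6 ± 2.94), Gas1 (15.0 ± 3.62), Boc (11.3 ± 1.66), Gli2 (8.05 ± 1.46) and Gli1 (7.42 ± 1.83) in the IP. Neighbours in this order overlapped in every case. The order held library by library in 12 of 12 for Sufu over Smo and Boc over Gli2, and in 9 of 12 for Ptch1 over Cdon and Gli2 over Gli1. In the input the order was Ptch1 (22.7 ± 3.69 TPM), Cdon (15.6 ± 2.41), Sufu (15.1 ± 2.41), Smo (15.0 ± 2.13), Boc (7.53 ± 1.80), Gli3 (6.60 ± 1.29), Gas1 (3.85 ± 0.674), Gli2 (3.27 ± 1.10) and Gli1 (1.72 ± 1.00). Cdon, Sufu and Smo could not be ordered there: Cdon was above Sufu in 7 of 12 libraries and Sufu above Smo in 8. Boc over Gli3 held in 8 of 12 input libraries and Gas1 over Gli2 in 7, so these neighbours were not ordered either. The only neighbours without overlap were Smo and Boc. Gas1 stood below Boc in the input and above it in 11 of 12 IP libraries. In the IP, 74.9% of genes with a mean of at least 1 TPM lay below Ptch1 and 30.7% below Gli1.

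No gene of the set was called between running and sedentary mice in the IP, where 1 of 17282 genes was called (0.00579%). Taken as the mean of the 3 days, 8 of the 9 genes had lower values in running mice and Sufu a higher one, also after median-of-ratios scaling. The median difference of the set was -0.26, against -0.07 for all genes, of which 63.7% were below 0. An unadjusted p under 0.05 was found for 5 of the 9 genes, and for 14.2% of all genes. All 9 overlapped between the 6 running and 6 sedentary libraries, and 0.457% of all genes were lower in running mice without overlap. Within a day, where 2 libraries meet 2, 6 members were lower without overlap at day 11 (22.5% of all genes), 5 at day 18 (23.8%) and 5 at day 27 (28.6%).

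Gas1 had the largest difference. Its 6 running libraries had 9.15 to 14.6 TPM (median 13.2) and its 6 sedentary libraries 12.7 to 20.9 TPM (median 17.7), a difference of -0.45 ± 0.14 (adjusted p = 0.214). Sedentary f of day 27 was the sedentary library that reached into the running range. Ptch1 had 29.4 to 52.6 TPM in running mice (median 45.4) and 47.9 to 66.2 TPM in sedentary mice (median 56.2), a difference of -0.38 ± 0.12 (adjusted p = 0.215). Cdon had 31.1 to 53.1 TPM (median 41.2) against 46.1 to 58.6 TPM (median 51.4), a difference of -0.35 ± 0.12 (adjusted p = 0.235). Smo had 13.7 to 22.3 TPM (median 19.4) against 17.8 to 27.9 TPM (median 23.0), a difference of -0.31 ± 0.13 (adjusted p = 0.301). Boc had 8.79 to 12.5 TPM (median 9.93) against 10.9 to 13.7 TPM (median 12.7), a difference of -0.26 ± 0.12 (adjusted p = 0.341). For Smo, Boc and Cdon the running library was the lower one at each of the 6 letters, and for Gas1 and Ptch1 at 5 of 6. The labels do not say that a letter marks a pair, and the share of all genes with such counts was not taken.

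The transcription factors Gli1, Gli2 and Gli3 had differences of -0.26, -0.24 and -0.22, with adjusted p of 0.463, 0.492 and 0.463, and were lower in running mice at 5 of 6 letters each. Gli1 had 5.01 and 5.80 TPM in running mice at day 27 and 8.08 and 8.39 TPM in sedentary mice, but 8.70 and 10.1 TPM against 7.87 and 9.54 TPM at day 18. The values of running mice were thus below those of sedentary mice at day 27. At day 18 the groups overlapped, with a difference of 0.10, higher in running mice. Without the Rpph1-rich IP library running a of day 11, the mean difference of Gli1 was -0.13, that of Gli2 -0.17, that of Gli3 -0.16, that of Ptch1 -0.27 and that of Gas1 -0.36. Gli2 was at -0.14 without sedentary b of day 11, and Gli3 at -0.13 without sedentary c of day 18.

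Sufu, which holds Gli proteins back, differed from the rest of the set in sign. In running mice it had 23.5 and 28.8 TPM at day 11, 40.7 and 41.8 TPM at day 18, and 39.4 and 45.4 TPM at day 27. In sedentary mice it had 29.3 and 36.1, 32.5 and 34.9, and 27.2 and 33.7 TPM on the same days. Running mice were thus below sedentary mice at day 11 and above them at days 18 and 27, with no overlap within a day. The differences were -0.31, 0.28 and 0.47. A single day compares 2 libraries with 2: without overlap, 22.5% of all genes were lower at day 11, and 21.5% and 17.3% were higher at days 18 and 27. The mean over days was 0.15 ± 0.10 (adjusted p = 0.523). Whether the running effect differed between days was tested with limma's F test across all genes, in which 0.00579% were called. Sufu had an unadjusted p of 0.0173 there, which did not hold after adjustment (limma, adjusted p = 0.921).

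**Figure D3:**
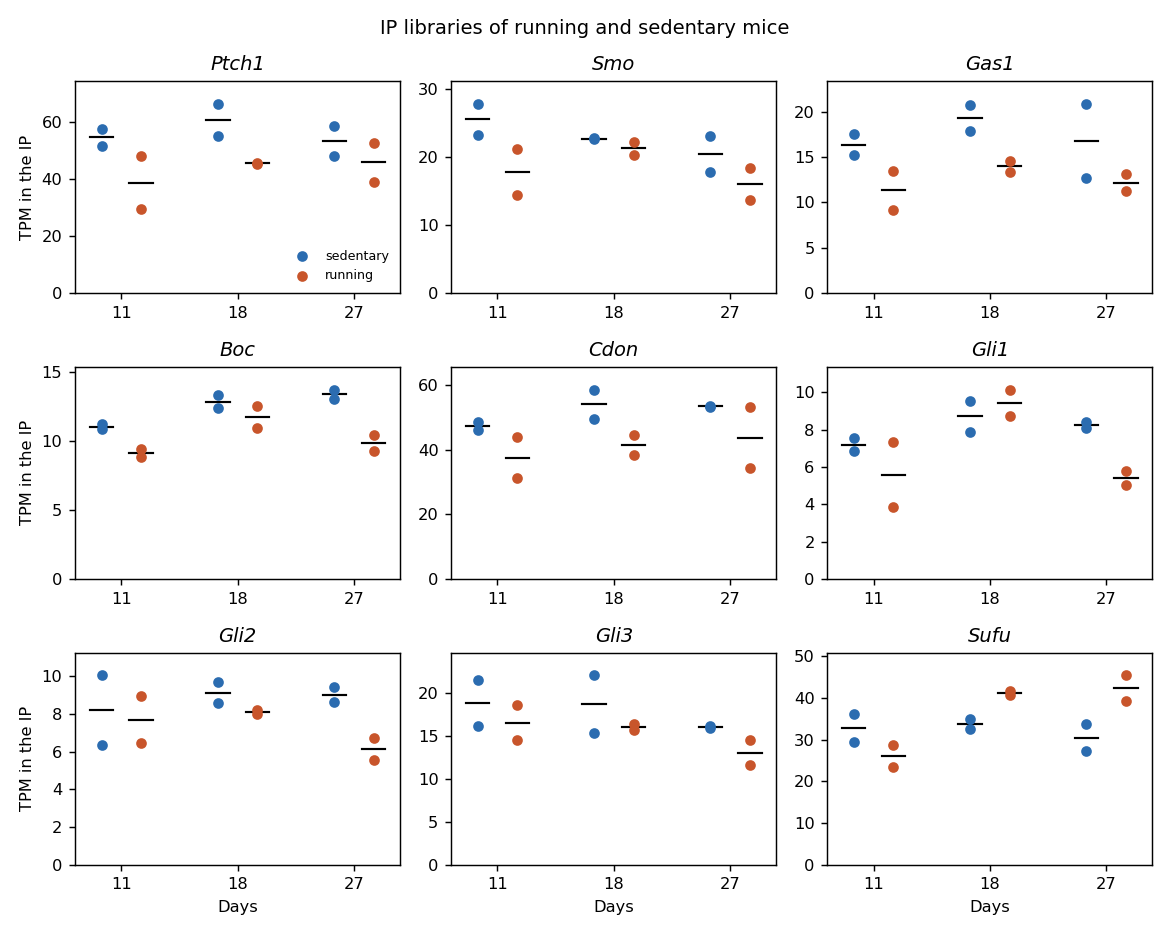
TPM in each IP library of sedentary (blue) and running (orange) mice at 11, 18 and 27 days, with a line at the mean of each pair, 1 panel per gene. Sufu is lower in running mice at day 11 and higher at days 18 and 27, while Ptch1 and Gas1 have lower means in running mice on each day.

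Cell type markers were compared in the same way, where the median difference of all genes was -0.07 and most genes were below 0. All 10 astrocyte markers and all 10 neural stem cell markers had lower values in the IP of running mice, with medians of -0.37 and -0.31, and none was called. The summed astrocyte markers were 2215 to 3552 TPM in running and 3183 to 4510 TPM in sedentary mice, and the summed stem cell markers 557 to 938 and 734 to 1005 TPM. All 8 oligodendrocyte and all 8 microglia markers had lower values too, with medians of -0.25 and -0.23, and the summed oligodendrocyte markers were 902 to 1244 TPM in running and 1166 to 1387 TPM in sedentary mice. All 10 immature neuron markers had higher values in running mice, with a median of 0.34. Mean sums were also higher for mature granule neurons (4375 against 3689 TPM), dividing cells (225 against 200) and intermediate progenitors (282 against 242). They were higher too for CA pyramidal and mossy neurons (823 against 575) and ependymal cells and choroid plexus (38.6 against 16.6). Interneurons (298 against 311), oligodendrocyte precursors (55.3 against 62.3) and endothelial and mural cells (59.6 against 67.4) had lower sums. None of the stem cell and astrocyte markers was at 0 in any library. Their part in the running differences of the hedgehog genes was not tested. Over the 12 IP libraries, which differ in activity and day, Pearson's r between the log2 level of a gene and that of the astrocyte sum was 0.89 for Gli3, 0.88 for Ptch1, 0.85 for Gas1, 0.76 for Cdon, 0.75 for Smo, 0.74 for Gli2, 0.70 for Gli1, 0.56 for Boc and -0.07 for Sufu. Without the 2 libraries farthest from the median it was 0.95 for Gli3, 0.75 for Ptch1 and 0.69 for Gas1. It fell to 0.39 for Gli1, 0.21 for Boc and -0.64 for Sufu. Other lists gave values of like size for some genes. With the stem cell sum r was 0.83 for Gli3 and 0.79 for Smo, and with the oligodendrocyte sum 0.74 for Cdon and 0.72 for Ptch1. With the sum of CA pyramidal and mossy neuron markers r was -0.80 for Cdon. That list shares Calb2, at a mean of 270 TPM in the IP, with the immature neuron list. With the immature neuron sum r was -0.55 for Cdon.

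In the input no gene of the set was called for running, and none of 20462 genes was (0.0%; 858 genes had an unadjusted p under 0.05). Ptch1 was the single member with an unadjusted p under 0.05. It had 16.3 to 27.9 TPM in running mice (median 20.4) and 22.7 to 27.2 TPM in sedentary mice, with overlap. The difference was -0.26 ± 0.11 (unadjusted p = 0.0367, adjusted p = 0.953, limma). By day Ptch1 was at 0.01, -0.55 and -0.22 at days 11, 18 and 27, and without the day 18 libraries it was at -0.11. The others lay between -0.20 for Smo and 0.05 for Gli1. The running effect in the IP minus that in the input was not called for any member or any gene (0.0%; 1166 of 19507 genes had an unadjusted p under 0.05). It was -0.41 ± 0.20 for Gas1 (adjusted p = 0.803) and 0.33 ± 0.14 for Sufu (unadjusted p = 0.0307, adjusted p = 0.803). Without the day 18 libraries Sufu was at 0.06. Its input difference between running and sedentary mice was -0.58 at day 18, against 0.05 at day 11 and -0.01 at day 27. Input and IP differences are thus not shown to differ.

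**Figure D4:**
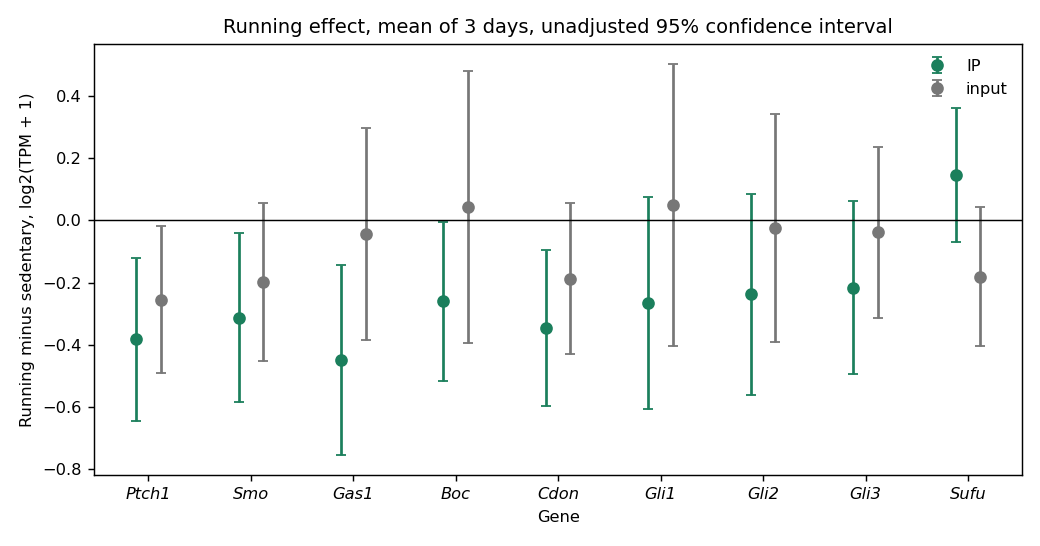
Running minus sedentary on the log2(TPM + 1) scale, mean of 3 days, in the IP (green) and in the input (grey), with unadjusted 95% confidence intervals. In the IP 8 genes lie below 0 and Sufu above it, and no gene passed the adjusted threshold in either fraction.

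From day 11 to day 18 in the input, Gli1, Gli2 and Gli3 rose. These are 3 of 9 genes, a share near that of all genes, of which 49.2% were called: 37.8% rose and 11.4% fell. The median difference of the set was 0.23 and that of all genes 0.23. Gli1 had 0.64, 0.76, 1.25 and 1.51 TPM at day 11 and 2.34, 2.60, 3.35 and 3.54 TPM at day 18, a difference of 0.97 ± 0.25 (adjusted p = 0.00848). Gli2 had 2.0, 2.60, 2.94 and 3.35 TPM at day 11 and 4.30, 4.48, 4.86 and 4.97 TPM at day 18, a difference of 0.61 ± 0.20 (adjusted p = 0.027). Gli3 had 4.50, 5.90, 6.14 and 6.85 TPM at day 11 and 7.29, 7.44, 7.91 and 9.43 TPM at day 18, a difference of 0.40 ± 0.15 (adjusted p = 0.0484). For each of the 3 every library of day 18 was above every library of day 11, as for 32.2% of all genes. The call of Gli3 was lost after median-of-ratios scaling, at 0.28 (adjusted p = 0.129), and when any of 11 of the 12 input libraries was left out. That of Gli2 was lost without any of 4 libraries.

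From day 18 to day 27, Gli1 and Gli2 fell in the input, where 37.1% of all genes were called and 26.7% fell, so that 2 of 9 is again near the share of all genes. Each of the 2 calls was lost without any of 5 of the 12 input libraries, and that of Gli1 also with a pseudocount of 0.1. For these 2 and Gli3 every library of day 27 was below every library of day 18, as for 21.2% of all genes. Gli1 had 0.96, 1.00, 1.01 and 1.63 TPM at day 27 and fell by 0.88 ± 0.25 (adjusted p = 0.0227). Gli2 had 1.99, 2.36, 2.53 and 2.83 TPM at day 27 and fell by 0.73 ± 0.20 (adjusted p = 0.021). Gli3 had 5.34, 6.0, 6.01 and 6.34 TPM, a difference of -0.38 ± 0.15 that was not called (adjusted p = 0.0734). Between days 11 and 27 none of the 9 genes was called, nor any other gene (0.0%; 2917 genes had an unadjusted p under 0.05). The largest value was that of Cdon, at 0.35 ± 0.14 (unadjusted p = 0.0245, adjusted p = 0.263, limma), with all 4 libraries of day 27 above those of day 11, as for 4.48% of all genes.

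The day 18 input libraries are those with the high olfactory receptor mean, and the part of this difference in the rise of the Gli genes was not tested. Ptch1, the other direct target among the 9, was not called: it had 19.0, 22.7, 23.1 and 27.9 TPM at day 11, 16.3, 17.9, 23.95 and 27.2 TPM at day 18, and 21.8, 21.8, 24.1 and 27.2 TPM at day 27. Its difference from day 11 to day 18 was -0.13 ± 0.13 (adjusted p = 0.448). Hhip and Shh, both low, also rose in the input from day 11 to day 18, by 0.61 (adjusted p = 0.018) and 0.79 (adjusted p = 0.0364).

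**Figure D5:**
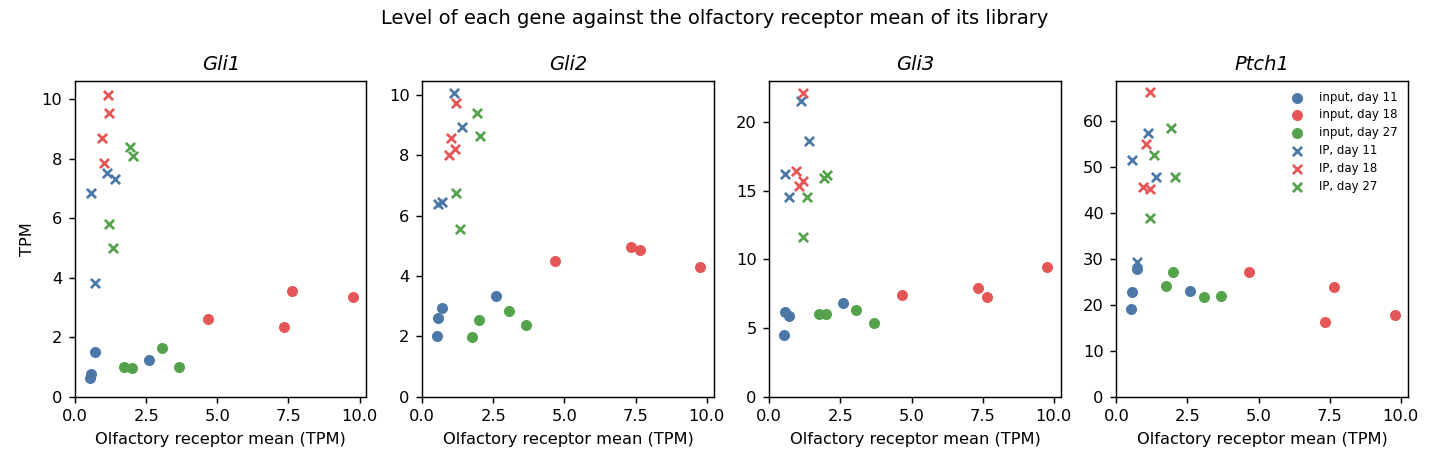
TPM of Gli1, Gli2, Gli3 and Ptch1 in each library against the mean TPM of the olfactory receptor genes of that library, for input (circles) and IP (crosses) and for days 11, 18 and 27 (colours). The 4 input libraries of day 18 lie at 4.67 to 9.78 TPM on the horizontal axis and have the highest input values of Gli1, Gli2 and Gli3, but not of Ptch1.

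In the IP no member was called between days, while 5.66% of genes were called from day 11 to day 18, 0.122% from day 18 to day 27 and 15.3% from day 11 to day 27. The lowest unadjusted p belonged to Sufu and Gli1 from day 11 to day 18. Sufu had 23.5, 28.8, 29.3 and 36.1 TPM at day 11 and 32.5, 34.9, 40.7 and 41.8 TPM at day 18, a difference of 0.34 ± 0.12 (unadjusted p = 0.014, adjusted p = 0.108, limma). Gli1 had 3.84, 6.86, 7.31 and 7.52 TPM and then 7.87, 8.70, 9.54 and 10.1 TPM, a difference of 0.48 ± 0.20 (unadjusted p = 0.028, adjusted p = 0.161, limma). Gli1 was thus the single member in the IP whose day 18 libraries were all above those of day 11, as for 10.2% of all genes. Without the IP library running b of day 11 both were called, Gli1 at 0.67 (adjusted p = 0.0248) and Sufu at 0.42 (adjusted p = 0.04), and 2679 genes were called in place of 978. That fit leaves the Rpph1-rich library as the single running IP library of day 11. Without the Rpph1-rich library instead, Gli1 was at 0.28 (adjusted p = 0.419) and Sufu at 0.27 (adjusted p = 0.251). The change from day 11 to day 27 in the IP minus that in the input was not called for any member (1.78% of genes were called). It was 0.41 ± 0.17 for Sufu (unadjusted p = 0.0295, adjusted p = 0.256, limma).

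Of 59 further pathway genes listed by role, 58 were in the table, Disp1 was not analysed here, and 55 were tested between IP and input, of which 33 were called higher and 11 lower, against 41.4% and 28.5% of all genes. Their median difference was 0.37, against 0.12 for all genes. The ligands were low in both fractions. Shh averaged 1.02 TPM in the IP against 1.17 TPM in the input, a difference of -0.06 (adjusted p = 0.762), and Ihh and Dhh were under the filter, each listed at 0 in 1 input library. Among genes for ligand processing and release, Scube3 and Hhat were higher, by 0.87 and 0.40, and Scube1 lower, at -0.55. At the cell surface Hhip, which sequesters the ligand, averaged 3.19 TPM in the IP against 3.85 TPM in the input and was not called, while the glypican Gpc3 was lower, at -0.86, and Gpc5 higher, at 0.37.

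Inside the cell the largest differences were those of other targets, of which 5 of 7 were higher and 1 lower (41.4% and 28.5% of all genes, the shares to read the next counts against): Sfrp1, a secreted Wnt inhibitor, at 2.60, the transcription factor Mycn at 2.43, Foxm1, a factor of cell division, at 1.43 and the cyclin Ccnd2 at 1.25. Of 16 genes of the primary cilium 14 were higher, with Mks1 at 1.14, Dync2h1 at 1.00, Wdr19 at 0.87 and Ift172 at 0.75. Genes that act on Smo and on cAMP were 4 higher and 2 lower, with Evc at 1.18, Gpr161 at 0.86 and Iqce at 0.81 against Gnas, a G protein subunit, at -0.57. Genes that act on Gli proteins were evenly divided, 6 higher and 6 lower of 15: the ciliary kinesin Kif7 was at 1.25 and Tulp3 at 0.81, and the protein kinase A subunits Prkacb and Prkar1a at -0.67 and -0.49.

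For running in the IP none of the 55 genes was called, and 9 had an unadjusted p under 0.05, all of them lower, where 14.2% of all genes had such a p and 10.4% were lower with it. The lowest p-values were those of Gpc5, Iqce, Gpc3 and Nkx2-2, a transcription factor, at -0.40, -0.37, -0.56 and -0.64, with adjusted p of 0.162 to 0.217. In the input from day 11 to day 18, 8 of 54 rose and 9 fell, where 37.8% of all genes rose and 11.4% fell. Those of lowest p were Lrp2, a co-receptor, at 1.61, Stk36 at 1.08, the survival gene Bcl2 at 0.63 and Ankmy2 at -0.47. From day 11 to day 27 in the IP 3 of 55 rose, where 11.4% of all genes did: Disp2, a relative of the ligand release protein Disp1, and Adrbk1, the kinase also called Grk2 that phosphorylates Smo, each by 0.67 (adjusted p = 0.000759 and 0.00195), and Btrc, a ubiquitin ligase subunit for Gli processing, by 0.44 (adjusted p = 0.0239). Disp2 rose from a mean of 68.9 to 110.3 TPM and Adrbk1 from 53.6 to 86.2 TPM. For these 2 the change was larger in the IP than in the input, by 0.80 (adjusted p = 0.0433) and 0.82 (adjusted p = 0.0295).

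The genes of the set were compared with 11759 genes of at least 5 TPM in the IP by Pearson's r of log2(TPM + 1) over the 12 IP libraries, which also reflects condition and library, and the 3 most alike are named. For Ptch1 they were Cecr2 (r = 0.96), Gpld1 (0.95) and Mgll (0.94), and for Smo Ttyh1 (0.91), Fkbp9 (0.90) and Aldoc (0.90). Gas1 was most like Fbln2 (0.96), Mfge8 (0.94) and Gpc5 (0.92), Cdon most like Igsf11 (0.97), Pou2f1 (0.96) and Ammecr1l (0.96), and Boc most like Pars2 (0.92), Ephb4 (0.92) and Cln3 (0.91). Gli1 was most like Tgif2 (0.95), Gltpd1 (0.93) and Kctd15 (0.93), Gli2 most like Sspn (0.90), Cpne2 (0.89) and Phf5a (0.89), and Gli3 most like Pdlim5 (0.96), Npas3 (0.95) and Tnc (0.94). Sufu was most like Smarca4 (0.94), Ppp6r1 (0.93) and Celf1 (0.93), and no gene was named for more than 1 member. Within the set Ptch1 was closest to Gas1 (r = 0.92, Spearman's rho 0.87) and to Cdon (r = 0.91, rho 0.80). Without the 2 libraries farthest from the median these were 0.86 and 0.80. Sufu had r between -0.34 and 0.26 with the other 8. Without the 2 libraries farthest from the median its r ran from -0.61 with Cdon to 0.08 with Gli1. With Ptch1 it went from 0.26 to -0.42, so the values of Sufu depend on few libraries.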

How the data were processed

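Ribosome-bound RNA (IP) and input RNA of the dentate gyrus were sequenced with a stranded total RNA kit, per the labels' protocols. RSEM was used with build mm10, per the submitters' processing notes; for aligner, annotation and strand setting, the step is not given in the sources used here. The authors deposited 1 table of TPM for 24 libraries, each summing to 1000000, so depth is unknown and precision rests on the spread between libraries. From it, limma 3.58.1 in R 4.3.3 (group means, eBayes with trend and robust) was fitted on log2(TPM + 1), over 24 libraries or 12 of a fraction, to genes with a mean of at least 1 TPM. Tests were two-sided with Benjamini-Hochberg adjustment over all genes and a threshold of 0.05. In simulated data 100 genes were changed by 0.5 and 100 by 1. Changes of 0.5 were recovered for 55 of 100 genes between IP and input, and changes of 1 for 90. In the real data 69.9% of genes were called there, so the simulated shares do not give the power of that comparison. For running, changes of 0.5 were recovered for 34 of 100 genes in the IP and 8 of 100 in the input. Changes of 1 were recovered for 71 and 57. Unchanged genes called were 7, 8 and 3 in these 3 comparisons. A gene that was not called for running is thus not shown to be unchanged. The members, gene lists and tests were chosen with earlier results of these data known. Named were all members and, of other pathway genes, the 4 of lowest unadjusted p per role (IP against input) or over the list, plus Shh, Ihh, Dhh and Hhip; 1 further gene of the rule is not reported here. Gene positions came from GENCODE M21 (GRCm38) and promoters from RefSeq. Alternatives were a pseudocount of 0.1, no filter, median-of-ratios scaling, limma without trend and robust, no day 18, replicate blocks and each library left out.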

Additional observations from a re-analysis of the deposited data

Results flagged for a closer look

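By Dixon's criterion, 4 of 54 sets of 4 libraries (a gene in a fraction on a day) held a library that stood apart from the other 3, and 0 of 36 sets of 6 libraries (a gene in a fraction and activity) did; chance gives about 1 in 20. Cdon in the IP at day 27 was lowest in the running library e, at 34.21 TPM, with the next at 53.05 TPM. Gli3 in the IP at day 18 was highest in the sedentary library c, at 22.09 TPM, with the next at 16.39 TPM. Gli1 in the input at day 27 was highest in the running library e, at 1.63 TPM, with the next at 1.01 TPM. Boc in the input at day 27 was highest in the sedentary library f, at 8.37 TPM, with the next at 7.62 TPM.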

How the results depend on the processing

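Between IP and input, the direction of all 9 genes and the calls of 8 were kept under every alternative run for the mean over days; Smo lost its call after median-of-ratios scaling (0.16). For running in the IP no member was called under any alternative, and no direction changed. With the library letter as replicate block, the smallest adjusted p for running in the IP were 0.064 for Ptch1 and 0.0703 for Gas1, and 440 genes were called over the table in place of 1. Deviations from the group means were correlated between running and sedentary libraries of one letter at 0.0465 to 0.237 in the IP and 0.0788 to 0.259 in the input. Between IP and input libraries of one name the correlation was -0.298 to 0.0004. The labels do not say whether a letter marks a pair, and these few values cannot settle it. The block changed no call of a member.

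The calls between days were less stable, and the cause was not tested. In the input from day 11 to day 18, between 1 and 4 members were called higher when a library was left out, and 0 to 1 lower; Sufu was called lower after median-of-ratios scaling (-0.44), which made 1 lower in place of 0. Gli3 kept its call without 1 of the 12 libraries in turn and lost it without the other 11. Gli2 lost it without running b or sedentary b of day 11, sedentary c or running d of day 18, for example at 0.52 (adjusted p = 0.103) without running b of day 11. From day 18 to day 27, between 0 and 2 members were called lower without a library, and 1 with a pseudocount of 0.1, where Gli1 was at -1.30 (adjusted p = 0.0566). Gli1 lost that call without running c or sedentary c of day 18, sedentary e, running f or sedentary f of day 27, with adjusted p of 0.061 to 0.0834. Gli2 lost it without sedentary c or running d of day 18, running e, running f or sedentary f of day 27, with adjusted p of 0.0511 to 0.0809. In the IP from day 11 to day 18, 0 to 2 members were called higher without a library, and from day 11 to day 27 after median-of-ratios scaling 1 was called lower, Gli3 at -0.40 (adjusted p = 0.0495).

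Values near 0 changed sign in the input. From day 11 to day 18 Boc was at -0.043 after median-of-ratios scaling and at -0.184 to 0.354 without one library, and Ptch1 at -0.262 to 0.0025. From day 18 to day 27 Boc was at -0.0976 to 0.217 and Gas1 at -0.0542 to 0.0539 without one library, and Gas1 at 0.027 after scaling. Over all genes, median-of-ratios scaling changed the split of calls between days, from 7736 higher and 2338 lower to 7128 and 4153 in the input from day 11 to day 18, from 788 and 190 to 465 and 453 in the IP from day 11 to day 18, and from 1971 and 671 to 1282 and 1505 in the IP from day 11 to day 27. Depth is unknown, and with 2 libraries a group differences of the size seen for running lie close to the spread.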
